A study of Mus musculus with 444 samples.

Results

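Milk protein genes encode the caseins and whey proteins that the mammary gland secretes during lactation. Here they were followed in single mammary epithelial cells of mice at puberty and in adulthood. The labels name no pregnancy or lactation. The 9 members were taken from a fixed list of casein, whey and related genes and matched by their Entrez gene identifiers: the casein genes Csn1s1, Csn2, Csn1s2a, Csn1s2b and Csn3, the whey genes Lalba, Wap and Wfdc18, and Glycam1. They are 9 of the 27179 gene identifiers in the count tables, of which 25173 were kept for analysis. No measured value was used to choose them.

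The cells came from female mice of the inbred strain FVB/NJ that carried no stated transgene and received no treatment, and all were labelled total epithelium of the mammary gland. The labels name 2 stages, Puberty with 221 cells and Adult with 223. The tables of counts are headed 4 weeks for the pubertal cells and 10 weeks for the adult cells, whereas the methods of the study give an older age for puberty. Each cell was sorted as negative for blood and endothelial surface markers, captured on the Fluidigm C1, a microfluidic device with 1 chamber per cell, and sequenced as a library of its own. Several mice were pooled for each sort, the study repeated the experiment, and no label ties a cell to a mouse, sort or capture, so each stage counts as 1 sample and no difference between stages has a replicate check.

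Caseins are phosphoproteins that assemble into micelles and carry calcium and phosphate in milk. The whey proteins stay in solution. Prolactin drives the transcription of these genes through its receptor Prlr, the kinase Jak2 and the transcription factor Stat5a, with glucocorticoid and insulin signals added. The secretory alveolar cells of lactation descend from luminal progenitors, which express the transcription factor Elf5 and the receptor Kit. Mature luminal cells carry the oestrogen and progesterone receptors, and basal (myoepithelial) cells contract to expel milk.

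Stat5 proteins bind the palindrome TTCNNNGAA, which reads the same on both strands. Promoter windows of RefSeq on GRCm38.p6 (mm10), from 250 bases before to 50 bases after the start of a gene, were found for 7 of the 9 members, and Csn3 and Csn1s2b were not in the table. The 150 bases before the start are shown as examples for the caseins Csn1s1 and Csn2, with the matched letters in capitals, and for the whey genes Lalba and Wfdc18. The windows are chr5:87666058-87666207 (plus strand) for Csn1s1, chr5:87699426-87699575 (minus strand) for Csn2, chr15:98482684-98482833 (minus strand) for Lalba and chr11:83708854-83709003 (plus strand) for Wfdc18.
Csn1s1: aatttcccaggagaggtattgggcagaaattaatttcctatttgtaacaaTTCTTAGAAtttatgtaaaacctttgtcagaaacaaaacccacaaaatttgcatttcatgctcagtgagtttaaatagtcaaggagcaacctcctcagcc
Csn2: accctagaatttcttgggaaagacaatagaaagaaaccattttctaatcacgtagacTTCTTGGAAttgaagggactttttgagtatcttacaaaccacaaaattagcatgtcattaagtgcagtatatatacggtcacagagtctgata
Lalba: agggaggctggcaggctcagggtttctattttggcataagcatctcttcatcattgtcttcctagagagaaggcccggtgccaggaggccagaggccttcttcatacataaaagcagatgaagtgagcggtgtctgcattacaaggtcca
Wfdc18: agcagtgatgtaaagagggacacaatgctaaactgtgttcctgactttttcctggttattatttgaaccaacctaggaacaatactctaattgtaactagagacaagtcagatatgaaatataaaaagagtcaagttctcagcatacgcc
The match begins 100 bases before the start of Csn1s1 and 93 bases before that of Csn2. In Glycam1 a match begins 145 bases before the start, and in Csn1s2a a match begins at base 21 after it. The windows of Lalba, Wap and Wfdc18 hold no match to these letters. Csn1s2a, which had the largest ratio between the stages, thus has no match before its start, and Glycam1, which has one, had no read in any retained cell. A relation of the letters to the stages was not tested. Of 32851 windows of the same length in the table, 2726 (8.30%) hold one. A match describes the letters of the window and is not a measured binding site.

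Of the 444 cells, 323 had at least 100000 read pairs and 1500 detected genes and were retained, 171 at puberty and 152 in the adult. They held 101765 to 1356596 read pairs at puberty (median 311002) and 101146 to 1054373 in the adult (median 332580). Levels of a stage or a class are summed counts after each cell was thinned to 100000 read pairs, given as CPM (counts scaled to a common library size) with exact 95% Poisson intervals. Values of single cells are CPM of all their reads. The Poisson intervals cover counting error of reads only, and the protocol has no molecular identifiers, so amplification copies enter them as separate reads. Intervals for shares of cells treat each cell as a separate draw. No interval covers differences between mice, sorts or captures. The adult cells fall into 2 sets by the numbers in their titles. All 107 retained cells numbered 48 to 188 had reads of Rn7sk, a small nuclear RNA, against 8 of the 45 other adult cells and 35 of the 171 pubertal cells. The labels do not call these sets batches, but the level of several members differed between them, so adult values are also given for each set. The luminal keratin Krt8 reached 100 CPM in 140 pubertal and 126 adult cells and the basal keratin Krt14 in 55 and 100.

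Casein levels were higher in adult than in pubertal cells. Summed over all cells, Csn1s1, the alpha-S1 casein, had 212 CPM (205 to 219) at puberty and 1725 CPM (1704 to 1746) in the adult, a fold of 8.15 and a log2 ratio of 3.02 with a prior of 1 CPM. Single cells ranged from 0 to 12642 CPM at puberty and from 0 to 33251 CPM in the adult, with medians of 0 and 8.61 CPM, so the stages overlapped widely and most cells of both had little or none. Csn1s1 reached 100 CPM in 7 pubertal and 41 adult cells.

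Csn2, the beta casein, was at 65.3 CPM (61.5 to 69.2) at puberty and 920 CPM (905 to 936) in adult cells (log2 ratio 3.80). At puberty 99.9% of its reads lay in a single cell, the pubertal cell 86, at 11442 CPM, and the next cell had 6.49 CPM. Without the highest cell of each stage its levels were 0.0588 and 650 CPM. In the adult its highest cells had 41976 and 41122 CPM, the median was 0 and 17 cells reached 100 CPM. Csn1s2a, an alpha-S2-like casein, showed the largest ratio of the members, from 30.4 CPM (27.9 to 33.1) to 1129 CPM (1112 to 1146), a log2 ratio of 5.17. Only 2 pubertal cells had 100 CPM or more of it, at 3654 and 1595 CPM, compared with 28 adult cells reaching up to 51942 CPM, and its levels were 9.06 and 795 CPM once the top cell on each side was dropped.

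Csn3 encodes kappa casein, which coats the micelle surface. It took the most reads of the members in the adult, at 5191 CPM (5155 to 5227), and was already at 2103 CPM (2081 to 2124) at puberty, a log2 ratio of 1.30. Its median was 1.62 CPM and its highest value 44970 CPM over pubertal cells, and 78.4 and 75589 CPM over adult cells. Unlike the other caseins it was therefore present at puberty in many cells, with 64 of 171 cells at 100 CPM or more against 68 of 152 in the adult.

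The whey protein genes differed less between the stages than Csn1s1, Csn2 and Csn1s2a. Lalba encodes alpha-lactalbumin, the regulatory subunit of lactose synthase, and was at 97.5 CPM (92.9 to 102) at puberty and 204 CPM (197 to 211) in adult cells (log2 ratio 1.06). It reached 100 CPM in 8 pubertal cells, the highest at 5389 CPM, and in 18 adult cells, the highest at 6827 CPM. Wfdc18, which encodes a small WAP domain protein, was at nearly the same level in both stages, 2432 CPM (2409 to 2456) and 2683 CPM (2657 to 2709), a log2 ratio of 0.14. Its cells ranged from 0 to 57897 CPM at puberty (median 0.980) and from 0 to 60992 CPM in the adult (median 83.5), and 45 and 73 cells had 100 CPM or more.

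Wap encodes whey acidic protein, a major whey protein of lactating mice, and was nearly absent. It had 68 thinned reads at puberty, of which 98.5% were in cell 86 at 603 CPM, and 5 in the adult, all in 1 cell at 46.7 CPM. The resulting levels were 3.98 and 0.329 CPM, and the puberty over adult fold of 12.1 (counting interval 4.93 to 38.4) compares those single cells. Csn1s2b, a second alpha-S2-like casein, had no thinned read in either stage and 3.23 CPM in a single pubertal cell before thinning. Glycam1, a mucin-like protein of milk and of high endothelial venules, had no read in any retained cell, which allows up to 0.175 CPM and 1.75% of cells at puberty and 0.197 CPM and 1.97% of cells in the adult.

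Of the 6 members at 20 CPM or more in a stage, 5 were at least 2-fold higher in the adult (Csn1s1, Csn2, Csn1s2a, Csn3 and Lalba), and the background over all 7819 genes tested was 14.5%. None of the 6 was lower by that fold, for which the background was 19.5%. Over the 7 members with a ratio, Wap included, the median log2 ratio was 1.30, whereas the median over all genes tested was -0.09. The 9 members together took 4944 CPM, or 0.494% of reads, at puberty and 11852 CPM, or 1.19%, in the adult, a fold of 2.40.

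**Figure D1:**
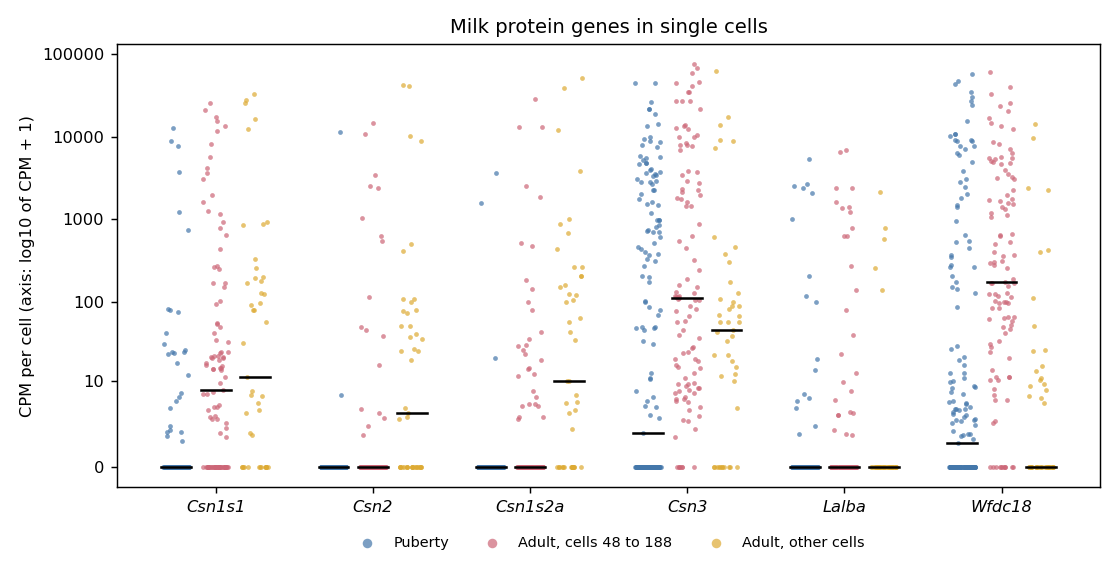
Level of 6 milk protein genes in single cells, as CPM on a log10 axis of CPM + 1; each point is 1 retained cell, colours separate 171 pubertal cells, 107 adult cells numbered 48 to 188 and 45 other adult cells, and the bar is the median of the log10 values. Csn2 and Csn1s2a lie at 0 in nearly all pubertal cells, whereas Csn3 and Wfdc18 spread from 0 to over 10000 CPM in both stages.

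The direction for Csn1s1, Csn2 and Csn1s2a was the same against each adult set. In cells 48 to 188 the log2 ratios over puberty were 2.62, 2.37 and 4.17, and in the other adult cells 3.67, 5.12 and 6.30. For Csn3 and Lalba they were 1.56 and 1.36 in cells 48 to 188 but 0.38 and -0.13 in the other adult cells, where Csn3 was at -0.44 once the highest cell on each side, among them adult cell 211, was left out. Wfdc18 changed direction, with log2 ratios of 0.54 and -1.91. Thus 5 of 6 members were at least 2-fold above puberty in cells 48 to 188, where the background was 15.4%, and 3 of 6 in the other adult cells, where it was 20.1%. In those other cells Wfdc18 was 1 of 6 members lower by the same fold, against a background of 28.2%.

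Set directly against each other, the adult sets split the members. Csn3, Lalba and Wfdc18 were 2-fold or more higher in cells 48 to 188 (6223, 252 and 3540 CPM) than in the other adult cells (2738, 88.9 and 645 CPM), with 26.0% of all genes past that fold. Csn1s1, Csn2 and Csn1s2a were 2-fold or more lower (1310, 341 and 563 CPM against 2710, 2299 and 2472 CPM), with 28.0% of all genes past it. The summed members differed little between the sets, at a log2 ratio of 0.16. The other adult set holds 6 of the 37 adult cells with 1% or more of their reads on members, and the 5 highest of its cells held 92.9% of its reads on members, so its levels are the levels of a few cells. Capture, animal and cell make-up cannot be told apart here.

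Milk protein reads were concentrated in few cells. At least 1% of all reads fell on the members (10000 CPM, counted on thinned reads) in 21 pubertal cells (12.3%, exact Clopper-Pearson interval 7.77 to 18.2%) and 37 adult cells (24.3%, 17.8 to 32.0%). These cells held 81.7% of the members' reads at puberty and 95.6% in the adult. The share was 31 of 107 in cells 48 to 188 and 6 of 45 in the other adult cells. The level of 1% is a point on a range, since 18 pubertal and 12 adult cells lay between 5000 and 20000 CPM.

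The highest adult cell, number 211, had 185087 CPM, or 18.5% of its reads, on the members. It had 25307 CPM of Csn1s1, 41976 of Csn2, 51942 of Csn1s2a and 63254 of Csn3, but only 402 CPM of Wfdc18. The highest pubertal cell, number 86, had 83224 CPM, or 8.32% of its reads, and was the single pubertal cell with 7 members at 100 CPM or more. Its values were 12642 CPM of Csn1s1, 11442 of Csn2, 1595 of Csn1s2a, 44331 of Csn3, 2368 of Lalba, 603 of Wap and 10243 of Wfdc18. Both cells had high Csn3, and cell 86 had more Wfdc18 and much less Csn1s2a than cell 211.

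Concentration varied by gene. The 5 adult cells with the highest sum held 34.9% of the adult reads on all members. For each gene the 5 cells highest for that gene were taken, which were not always the same cells. They held 84.4% of the adult reads on Csn2, 84.2% on Csn1s2a and 51.3% on Csn1s1, but 39.3% for Csn3 and 45.5% for Wfdc18. In the adult 9 cells gave 50% and 30 cells gave 90% of the summed reads, and at puberty 8 and 30 cells did. Most cells had 0 members at 100 CPM or more at puberty (96 of 171), and 61 of 152 had none in the adult. Counts of 4 or more members at that level were seen in 5 pubertal cells and 25 adult cells.

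**Figure D2:**
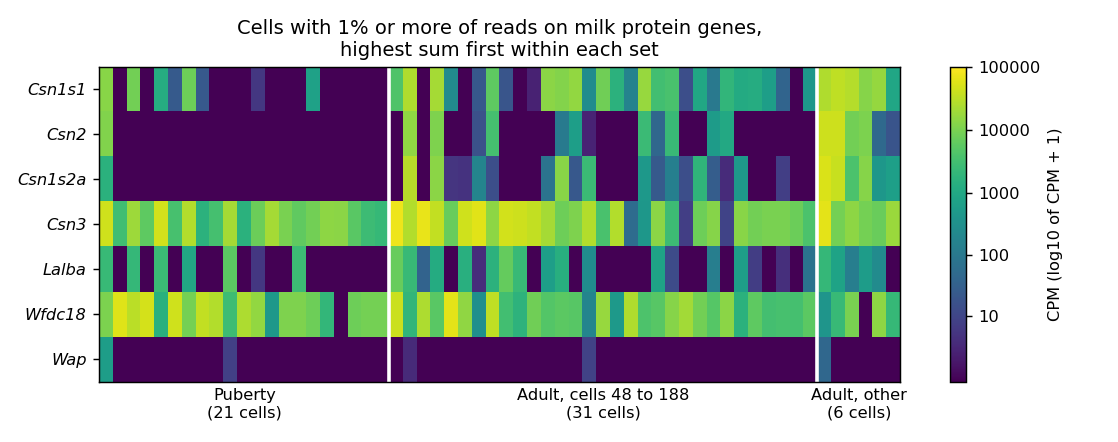
Level of 7 milk protein genes (rows) in each cell with 1% or more of its reads on them (columns, the highest sum at the left of each set), as colour on a log10 scale of CPM + 1, for 21 pubertal cells, 31 adult cells numbered 48 to 188 and 6 other adult cells. Csn3 and Wfdc18 are high across nearly all columns, whereas Csn2 is at 100 CPM or more in 1 pubertal cell, in 9 cells of the middle set and in 4 of the other adult cells.

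A low level of these genes was found in almost any adult cell. Any member reached 10 CPM in 58.5% of pubertal cells (100 of 171, interval 50.7 to 66.0%) and 89.5% of adult cells (136 of 152, 83.5 to 93.9%), or 51.5% and 85.5% without thinning. In the adult that share was 22 of 27 mature luminal-like cells and 35 of 38 basal-like cells, classes not known for milk synthesis (median depths 339128 and 457634 read pairs over both stages before thinning), so the share of cells at 10 CPM was not read as a share of expressing cells. The mix of members at low level differed between the sets of cells. Csn1s1, Csn2 and Csn1s2a made up 63.2% of the members' reads in the other adult cells with under 0.1% of reads on members, and 68.2% in the cells of the same set with 1% or more. In cells 48 to 188 these caseins were 7.36% and 18.9% of the members' reads in the same classes, and at puberty 2.54% and 6.47%. The other adult cells thus had the highest share of these caseins at both levels. The source of the low-level reads was not tested.

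**Figure D3:**
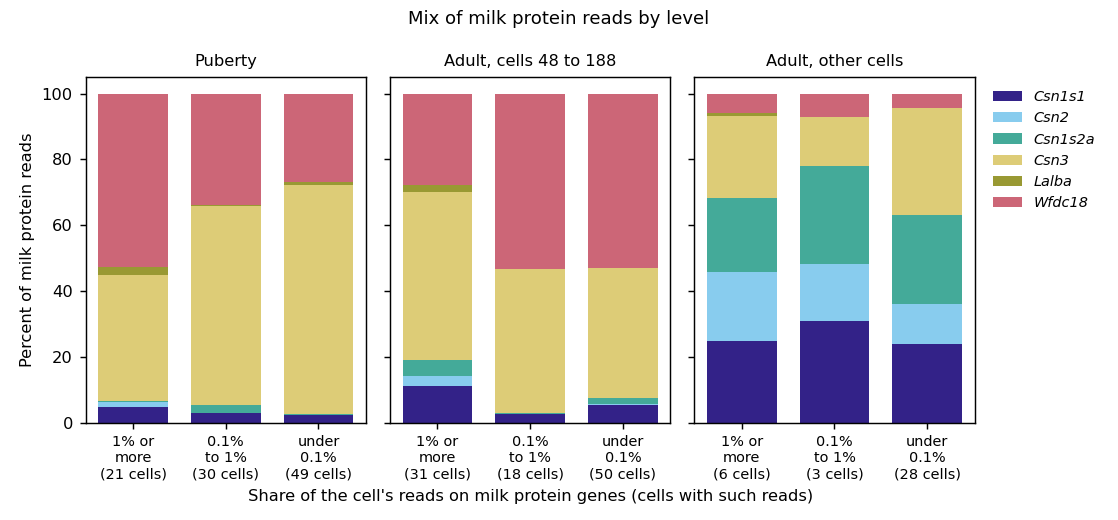
Share of 6 milk protein genes among the members' reads, as stacked percent of thinned reads, for cells with 1% or more, 0.1 to 1% and under 0.1% of reads on the members, in puberty and in each adult set. Csn1s1, Csn2 and Csn1s2a take 63.2 to 78.0% in every class of the other adult cells and 2.54 to 18.9% in every class of the remaining sets.

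Next the members were set against lineage. Cells were clustered on lineage genes of the study without the 9 members and named by fixed markers, which gave 46 luminal progenitor-like, 48 basal-like and 94 mature luminal-like cells and left 135 unnamed. The luminal list of the study also holds other milk secretion genes, such as Trf, Spp1 and Btn1a1. Over adult cells these correlated with the summed members at 0.71, 0.57 and 0.56. The classes are therefore not independent of milk secretion, and high members in the progenitor-like class are partly built in. The luminal progenitor-like cells had 7 of 10 progenitor markers raised, with Kit at 144 CPM and Elf5 at 128 CPM at puberty and 65.4 and 39.6 CPM in the adult. Adult cells of this cluster also carried basal transcripts, at 462 CPM of Krt14 and 1733 CPM of Acta2 against 66.0 and 96.5 CPM at puberty. This naming used Ward linkage, and complete linkage, which had been planned as the main method, formed no luminal progenitor-like cluster and placed most cells with 1% or more of reads on members (42 of 58) in its mature luminal-like cluster.

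The members were highest in luminal progenitor-like cells in both stages. Their summed level ranged from 1576 to 83224 CPM (median 24415) over 20 pubertal cells of this class and from 3737 to 185087 CPM (median 39173) over 26 adult cells. The medians were 734 CPM over 10 pubertal and 248 CPM over 38 adult basal-like cells, and 0 and 59.3 CPM over 67 and 27 mature luminal-like cells. Every luminal progenitor-like cell had members at 1576 CPM or more, but single basal-like cells reached values as high. With 11.7% of retained cells at puberty and 17.1% in the adult, luminal progenitor-like cells held 68.1% and 72.5% of the members' reads.

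The 3 caseins that were rare at puberty, and Lalba, were found there mainly in this class, which held 96.7% of pubertal reads on Csn1s1, 99.9% of those on Csn2, 99.6% of those on Csn1s2a and 99.2% of those on Lalba. These shares rest on few cells, since 90% of the pubertal reads lay in 4 cells for Csn1s1, 1 for Csn2, 2 for Csn1s2a and 5 for Lalba. They therefore give the class of those cells more than a trait of the class. Csn3, with 90% of its pubertal reads in 30 cells, had 54.7% of them in the class and 31.9% in unnamed clusters. Compared with basal-like cells, all 7 tested members were at least 2-fold higher at puberty (background 38.3%) and all 6 in the adult (background 29.9%). At puberty Csn1s1, Csn2, Csn1s2a, Lalba and Wap reached 20 CPM only in the luminal progenitor-like cells, so they could only come out higher. The cells of both classes were clustered on the same transcriptomes, so these counts describe the class and test nothing.

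**Figure D4:**
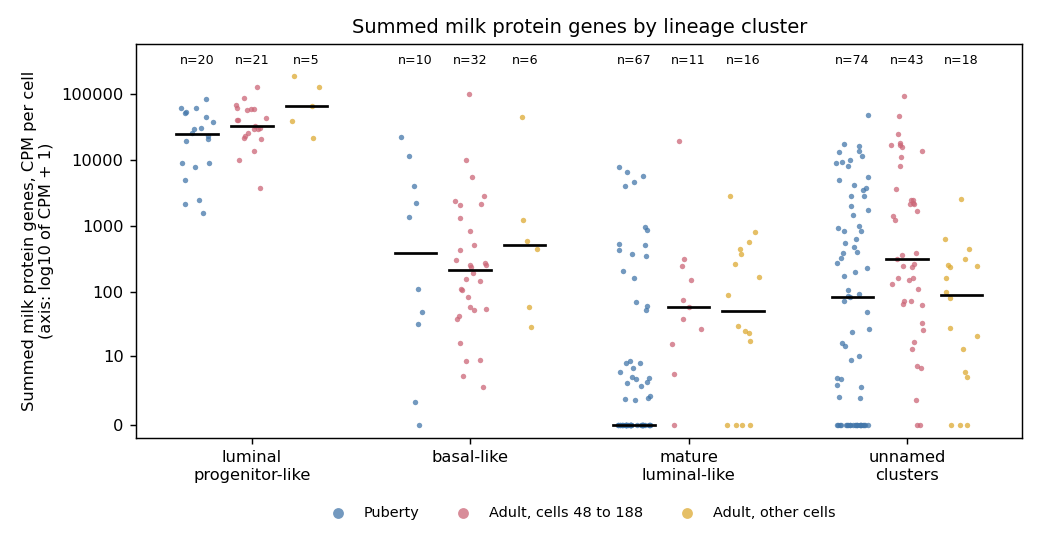
Summed level of the 9 milk protein genes in each retained cell, as CPM on a log10 axis of CPM + 1, by lineage cluster and by puberty or adult set; points are cells and bars are medians of the log10 values. Luminal progenitor-like cells lie between 1576 and 185087 CPM, while the bars of basal-like and mature luminal-like cells lie below 1000 CPM.

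Among luminal progenitor-like cells the members were ordered per length. Per kilobase of exon, the order at puberty was Wfdc18 at 28551 CPM per kb, Csn3 at 6154, Csn1s1 at 1236, Lalba at 1128, Csn2 at 498, Csn1s2a at 282 and Wap at 60.5. In the adult it was Wfdc18 at 21353 CPM per kb, Csn3 at 13355, Csn1s1 at 5284, Csn1s2a at 5147, Csn2 at 3725, Lalba at 1274 and Wap at 3.42. Wfdc18 and Csn3 led in both stages, and Lalba stood above Csn2 and Csn1s2a at puberty and below them in the adult.

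On the CPM scale, Csn1s1 in these cells had a lowest, median and highest value of 0, 0 and 12642 CPM at puberty and a median of 2344 and highest of 33251 CPM in the adult, with summed levels of 1750 and 7482 CPM (log2 ratio 2.10). Csn2 went from 558 to 4172 CPM (2.90), Csn1s2a from 259 to 4735 CPM (4.19) and Csn3 from 9828 to 21327 CPM (1.12). All pubertal Csn2 reads of the class were in cell 86. Over the 21 adult cells of the class numbered 48 to 188 the levels were 4248 CPM of Csn1s1, 823 of Csn2, 1347 of Csn1s2a and 21129 of Csn3, so that Csn2 was less than 2-fold above puberty there, and the 5 other adult cells held 9117 of the adult Csn2 reads of the class. Lalba was at 827 and 934 CPM (0.18) and Wfdc18 at 15532 and 11616 CPM (-0.42). Hence 4 of 7 tested members were at least 2-fold higher in adult cells of the class, with a background of 32.6%, and 1 of 7, Wap, was lower, with a background of 34.1%; over all genes tested the median log2 ratio was 0.04. The share of cells at 100 CPM or more was 19 of 26 adult and 5 of 20 pubertal cells for Csn1s1, 10 and 2 for Csn1s2a, 8 and 1 for Csn2, 24 and 17 for Csn3, and all cells of both stages for Wfdc18.

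Only 5 luminal progenitor-like cells belonged to the other adult set, and they varied widely. Their Csn1s1 values were 27859, 890, 16504, 25307 and 33251 CPM in cells 8, 10, 22, 211 and 222. Csn2 in the same cells was 8760, 18.6, 49.8, 41976 and 41122 CPM. Csn1s2a was 3848, 674, 439, 51942 and 38550 CPM. Cells 211 and 222 were thus high for all 3 caseins, whereas cell 22 had much Csn1s1 and little of the others.

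Outside this class most cells had low levels, but of the cells with 1% or more of reads on members, 8 of 21 at puberty and 12 of 37 in the adult lay there. In mature luminal-like cells Csn1s1, Csn2 and Csn1s2a were at 94.4, 33.3 and 130 CPM in the adult and at 2.39, 0 and 0.299 CPM at puberty, so that 3 of 5 tested members were at least 2-fold higher in the adult (background 22.5%). The highest values of Csn1s1 and Csn1s2a in adult cells of that class, 933 and 1881 CPM, came from cell 84, which also had 8045 CPM of Csn3 and 8527 CPM of Wfdc18. It was the single mature luminal-like cell with 1% or more of its reads on members.

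Among basal-like cells, 4 had 1% or more of their reads on members, 2 in each stage. This count depends on the naming. When each cell was instead assigned to the lineage with its highest marker score, 48 pubertal and 84 adult cells were basal. Of these, 3 pubertal and 8 adult cells had 1% or more, and all 8 were numbered 48 to 188. The highest, adult cell 106, had 100211 CPM of members together with 694 CPM of Krt14 and 1752 CPM of Acta2, basal genes, and 8791 CPM of Krt18, a luminal keratin. Adult cell 31, not basal under the marker score, had 44602 CPM of members with 3208 CPM of Krt14, 9708 CPM of Acta2 and 165 CPM of Krt18. Pubertal cell 159 had 22042 CPM of members with 586 CPM of Krt14, 1768 of Acta2 and 18.3 of Krt18. Pubertal cell 5 had 11613 CPM of members with 103 CPM of Krt14, 0 of Acta2 and 1034 of Krt18. The other luminal keratin, Krt8, was present in all 4 cells, at 2528, 975, 1042 and 517 CPM in cells 106, 31, 159 and 5. Acta2 and milk protein genes were thus read together in 3 of these 4 libraries. Over all adult cells with 1% or more, 19 of 37 had Krt14 at 100 CPM or more, 23 had Acta2 and 37 had Krt8, a luminal keratin. At puberty these were 4, 9 and 19 of 21. Among all retained cells the same genes reached that level in 100, 109 and 126 of 152 in the adult and in 55, 79 and 140 of 171 at puberty. Krt14 and Acta2 were thus less frequent in cells with 1% or more than in all retained cells, and Krt8 more frequent. An unnamed cluster of 11 cells, 10 of them adult cells from 48 to 188, had 9 basal and 6 progenitor markers raised, a median of 3560 CPM of members and 5 cells at 1% or more. Doublets were not called, and their part in these cells was not tested.

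Markers of other cell types were at or near 0 in most cells with high members, with exceptions in single cells. In adult cells with 1% or more, 4 of 5 endothelial markers, 5 of 6 immune markers and both high endothelial venule markers were at 0 in every cell, and the summed levels over cells reached 7.89 CPM for endothelial and 32.3 CPM for immune markers. Adipocyte markers reached 3876 CPM and fibroblast markers 2800 CPM in single cells, with medians of 0 and 3.93 CPM. In the pubertal cells with 1% or more these lists reached 802, 1.94, 24235 and 7779 CPM in the same order. In the adult cells under 1% they reached 2615, 1447, 34737 and 30277 CPM.

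Co-expression was described by Spearman correlation of thinned counts over cells, which share captures and a common depth, for members detected in at least 10 cells. Over 152 adult cells the 3 caseins that differed most between stages went together, at 0.65 for Csn1s1 and Csn2, 0.67 for Csn1s1 and Csn1s2a and 0.73 for Csn2 and Csn1s2a. Csn3 went with Wfdc18 (0.70) and Lalba (0.57). Between these groups the values ran from 0.04 for Csn1s2a and Wfdc18 and 0.09 for Csn2 and Wfdc18 to 0.53 for Csn1s1 and Csn3, and the median over 15 pairs was 0.43.

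The values differed between the adult sets. Within the 107 cells 48 to 188 Csn2 and Wfdc18 were at 0.40 and Csn1s2a and Wfdc18 at 0.30, with a median of 0.45. There Csn1s1 and Wfdc18 were at 0.62, above the pairs among Csn1s1, Csn2 and Csn1s2a, at 0.52 to 0.56. Csn1s1 was thus not set apart from Wfdc18 in these cells. Within the 45 other adult cells the 3 caseins were at 0.90 to 0.97, Csn2 and Wfdc18 at 0.09, and the median over 10 pairs was 0.72. Among 26 adult luminal progenitor-like cells of both sets the caseins Csn1s1, Csn2 and Csn1s2a had values of 0.60 to 0.76, and Csn3 and Wfdc18 were at -0.36. Within the 21 of these cells numbered 48 to 188 only 4 members could be compared, Csn2 and Csn1s2a not among them. The casein values of this class therefore cannot be told apart from differences between the sets. Over 171 pubertal cells 6 pairs could be compared, with a median of 0.33 and the highest value, 0.54, for Csn3 and Wfdc18.

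The members were nested in single cells. At 100 CPM or more, 16 of the 17 adult cells with Csn2 and 25 of the 28 with Csn1s2a also had Csn1s1, whereas 25 of the 41 with Csn1s1 lacked Csn2 at that level. All 18 adult cells with Lalba had Csn3, and 17 of them had Wfdc18. At puberty 58 of the 64 cells with Csn3 had Csn1s1 below 100 CPM, and all 7 cells with Csn1s1 had Wfdc18. Csn2 and Csn1s2a thus appeared mostly in cells with Csn1s1, and Lalba in cells with Csn3.

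**Figure D5:**
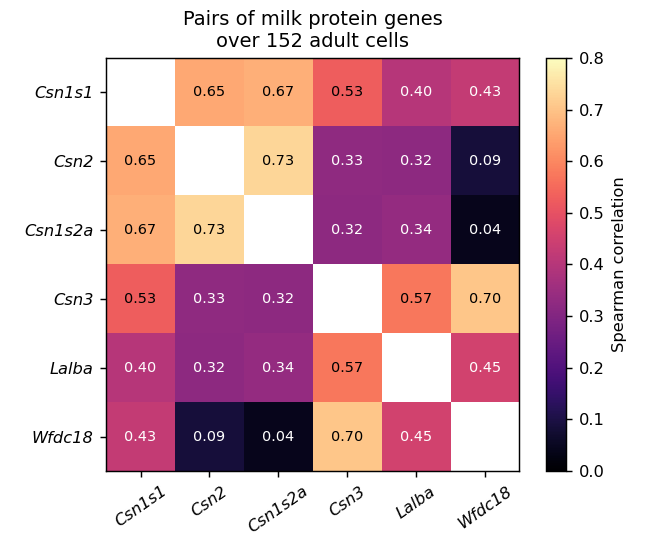
Spearman correlation of thinned counts between 6 milk protein genes over 152 adult cells; rows and columns are genes, and the colour and the number in each square give the correlation from 0 upward. Csn1s1, Csn2 and Csn1s2a correlate at 0.65 to 0.73 with each other and Csn3 and Wfdc18 at 0.70, while Csn2 and Csn1s2a are at 0.09 and 0.04 with Wfdc18.

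The genes whose pattern was most like the summed members were sought among 7234 genes over 152 adult cells, where the median correlation was 0.00. Trf, which encodes transferrin, was at 0.71, followed by Fcgbp at 0.69, Plet1 at 0.67 and Ehf, an epithelial ETS factor, at 0.62. Spp1, which encodes osteopontin, was at 0.57 and Btn1a1, the butyrophilin of the milk fat globule membrane, at 0.56. Mgst1 and Lipa were at 0.54, Cp, which encodes ceruloplasmin, at 0.53, and Mfge8, a protein of the milk fat globule, at 0.51. These were the 10 genes above 0.5. Over 171 pubertal cells the same genes were at 0.12 (Plet1) to 0.49 (Trf).

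Other genes of milk secretion were partly higher in the adult. Of 24 listed, 14 were tested, 6 were at least 2-fold higher (background 14.5%) and 1 was lower (background 19.5%), with a median log2 ratio of 0.83 over those tested. Spp1 had the largest ratio, from 214 to 2648 CPM (3.62), although 1 cell held 73.5% of its pubertal reads. Lcn2, the siderophore-binding lipocalin, went from 878 to 3477 CPM (1.98), Trf from 1299 to 4105 CPM (1.66) and Mfge8 from 311 to 945 CPM (1.60). Muc1, a membrane mucin, went from 36.8 to 82.3 CPM (1.14), with 66.3% of its adult reads in 1 cell, and Cel, the bile salt-stimulated lipase, from 25.0 to 8.36 CPM (-1.48). In the other adult cells alone the ratios of Trf, Mfge8 and Muc1 were -0.04, -0.05 and -0.26, and that of Lcn2 was 0.69, so all 4 were past 2-fold in cells 48 to 188 only.

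Genes of lactogenic signalling differed less when all adult cells were pooled. Of 20 listed, 16 were tested, 3 were at least 2-fold higher in the adult (background 14.5%) and 0 lower (background 19.5%), with a median log2 ratio of 0.27. Socs2, a feedback inhibitor of cytokine receptors, went from 23.2 to 87.8 CPM (1.88), Id2, an inhibitor of helix-loop-helix factors, from 123 to 380 CPM (1.62) and Nr3c1, the glucocorticoid receptor, from 51.3 to 123 CPM (1.24). In cells 48 to 188 the ratio of Nr3c1 was 0.79, under 2-fold. The pooled ratios of several genes joined unlike values of the adult sets. In cells 48 to 188 Jak2, Esr1, Akt1, Pgr and Stat5a were at -1.63, -2.29, -0.84, -0.12 and 0.60. In the other adult cells they were at 1.08, 1.84, 1.47, 1.96 and 1.24. Cish (1.04 and -0.12) and Tnfrsf11a (0.13 and -1.34) went the other way. For Esr1, 1 cell held 55.4% of the adult reads. Prlr was at 2340 CPM at puberty and 2785 CPM in the adult, with log2 ratios of -0.51 in cells 48 to 188 and 1.23 in the other adult cells. It was highest where the milk protein genes were lowest, at 12427 CPM in adult mature luminal-like cells against 828 CPM in adult luminal progenitor-like cells. In adult basal-like cells, however, both Prlr (62.6 CPM) and the members were below their luminal progenitor-like levels. The correlation of Prlr with the summed members over adult cells was 0.01.

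The 5 casein genes lie together on chromosome 5. On GRCm38.p6 the locus from the start of Csn1s1 to the end of Csn3 covers chr5:87666208-87932550, or 266.3 kb, and 9 of its 12 annotated genes are in the tables. None of the 4 that are not members reached 20 CPM in a stage. Prr27 had no read, and Gm7337, Odam and the long noncoding RNA 1700066N21Rik had 22, 37 and 5 thinned reads, all at puberty. 1700066N21Rik overlaps Csn3 and the use of strand in counting is not stated, so reads of the overlap cannot be assigned to either with certainty. The high levels in this interval were thus those of Csn1s1, Csn2, Csn1s2a and Csn3.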

How the data were processed

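Single cells were captured on the Fluidigm C1 and libraries were sequenced on a NextSeq 500, per the labels. The authors mapped read pairs to mm10 with Subread and counted them per gene with featureCounts on the RefSeq annotation of Rsubread, and they deposited raw counts. Tool versions and the use of strand are not given in the sources used here. The combined table held the same values (0 differed) and was not used.

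Current genes of RefSeq on GRCm38.p6 were found for most identifiers (25275 of 27179; the unmatched ones held 1.84% of reads), and 15 mitochondrial and 87 ribosomal protein genes were removed. Cells with under 100000 read pairs or 1500 detected genes on the remaining genes were dropped, after the methods of the study. Retained cells were thinned to 100000 read pairs (random seed 1). Ratios used a prior of 1 CPM, a gene was tested if it reached 20 CPM in either group, and at least 2-fold (log2 ratio of 1) was called higher or lower. No test across cells was run, as no label gives an animal or capture. A level of 0 allows up to 3 counts. The genes named were the 9 members, the 10 genes correlating best with their sum over adult cells, and listed genes past the fold, at most 6 per list. Tested genes of lactogenic signalling past the fold in either adult set were added. Members and lists were chosen with earlier results of these data known, as were the adult sets by title number.

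Clusters used 325 lineage genes without the members, log2 RPKM with a prior count of 5, and Ward linkage with 11 clusters. A cluster was named from at least 10 cells and 3 markers of its type raised by 20 percentage points. Doublets were not called, since the study inspected the chambers by microscope. Thinning, the ratio between stages and the ranking of genes by correlation were tested on simulated data. Clustering and naming were not. Python 3.11.15, numpy 2.4.6, pandas 2.3.3, scipy 1.17.1 and, for TMM factors, edgeR 4.0.16 in R 4.3.3 were used. Under an alternative a value was called moved when a log ratio, difference or correlation changed by over 10 percent, a count of members by over 1.5 times, the share held by the highest cells by over 5 percentage points, or when a share of cells left its exact interval.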

Additional observations from a re-analysis of the deposited data

Results flagged for a closer look

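Milk protein reads were also present in the 121 cells that did not pass the minimum depth and gene number, which enter no comparison above. Pooled over these cells, the members took 1565 CPM at puberty (50 cells, 23 of them with a read on a member) and 14871 CPM in the adult (71 cells, 50 with a read), above the level that 3 reads would give, 1.28 and 1.23 CPM. A single adult cell gave 21941 of the 36281 adult reads. Of the 42 excluded adult cells with at least 10000 reads, 10 had 1% or more of them on members.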

How the results depend on the processing

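Of 70 alternative values for 8 results, 56 stayed within the tolerance set for their kind, 14 moved and 0 changed direction. The log2 ratio of the summed members (1.26) was 1.13 on unthinned counts and 1.39 with TMM scaling. The median log2 ratio over members (1.30) was 1.05 on unthinned counts, 2.44 without the highest cell of each stage, where Wap dropped out of the 7 members, 1.56 for adult cells 48 to 188 and 0.38 for the other adult cells, and the count of members higher in the adult (5) was 3 for the other adult cells and 4 on unthinned counts, in cells of at least 200000 read pairs and 2500 detected genes, and with a prior of 10 CPM. The share of pubertal cells with a member at 10 CPM (58.5%) was 66.1% at any read and 43.9% at 100 CPM, and that of adult cells (89.5%) was 82.2% in the other adult cells and 59.9% at 100 CPM. The share of adult reads in the highest 5 cells (34.9%) was 92.9% in the other adult cells. The difference in median log10 CPM between adult luminal progenitor-like and basal-like cells (2.27) was 2.00 with the members put back among the clustering genes, an alternative chosen after seeing the data, and the median correlation between members (0.43) was 0.72 in the other adult cells. Except where the construction shows it, the cause was not tested.

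Ward linkage replaced complete linkage because the latter, with or without the members, named no luminal progenitor-like cluster and gave no value. No paired analysis was possible because the cell numbers in the titles only name cells. The sorts and pooled mice of a stage are not labelled, so differences between stages cannot be told apart from differences between sorts or captures. Reads are not molecules, since amplification copies were counted. At 100000 read pairs per cell, a level below 10 CPM is less than 1 read in a cell.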
